A study of Mus musculus with 6 samples.

Results

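Chromatin accessibility was described at 10 genes for the uptake of amino acids by kidney tubules: Slc6a19, Slc6a18, Slc7a7, Slc7a8, Slc7a9, Slc3a1, Slc3a2, Slc1a1, Slc36a2 and Cltrn. The members were chosen by name, and each was given the accessible intervals of the pooled peak list that overlap the stretch from 3 kb upstream of the gene start to the gene end. By this rule the 10 genes, of 21738 protein-coding genes, held 128 distinct intervals, of 279569 in the list. The libraries came from ATAC-seq, in which a transposase inserts adapters where DNA is accessible, on nuclei of kidney tissue from uninjured mice (treatment label Control). By the study's methods this tissue was dissected kidney cortex. There were 3 WT libraries, in batches 1 and 2, and 3 Acly cKO libraries, in batches 4 and 5. Acly cKO mice carry Acly fl/fl alleles and the Ksp-Cre transgene, which is driven by the Cdh16 promoter and recombines in the tubular epithelium. They lack ATP citrate lyase, which makes cytosolic acetyl-CoA from citrate, in those cells. By the study's methods the controls were Acly fl/fl littermates without Cre. Ages of the mice used for ATAC-seq were not given in the sources used here.

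The peak list was called once on all libraries pooled, so each value below is a single number for WT and Acly cKO kidneys together. Further WT libraries from an earlier deposit belong to the study, and the files do not show whether they entered the pool. Batch and genotype cannot be told apart, no value has a replicate error, and no comparison of WT with Acly cKO kidneys and no test could be made. In such a mixture, accessibility in a few cells and weak accessibility in many cells cannot be told apart. The labels state a minimum of 35000000 reads per sample, and the depth of each library is unknown from the list. An interval holds 1 or more summits, the points of highest coverage, and the fold enrichment of a summit is its coverage over the caller's background. The fold values moved in steps of 0.0655. All 749750 lay within 0.00794 of a step from a whole number of steps, so the coverage behind each was recovered, and 95% exact Poisson intervals are given in brackets. They cover counting error only and take the background as constant.

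Amino acids filtered at the glomerulus are taken back mainly by the proximal tubule, first across the brush border and then across the basolateral membrane into blood. Brush border carriers include the sodium-coupled SLC6 transporters, which need the membrane protein collectrin to reach the surface, and the cystine carrier, a heavy chain and a light chain joined by a disulfide bond. Basolateral exit uses heterodimers built the same way, with the heavy chain 4F2hc.

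The sequences before the start sites are shown first for 4 members with a motif match there, and for Slc1a1 as a CpG-rich contrast. Each line gives the 200 bases before the canonical start in GRCm39, on the strand of the gene. Capitals mark an HNF1 match in Slc6a18, Slc7a9 and Cltrn, the HNF4 word CAAAGTCCA and the word TATAAA, on either strand, in Slc3a1, and the word GGGCGG, on the opposite strand, in Slc1a1. The HNF1 pattern was GTTAAT and ATTAAC held 1 base apart, with up to 2 mismatches. HNF1 and HNF4 are transcription factors of liver, gut and proximal tubule.
Slc6a18 (chr13:73826146-73826345, - strand): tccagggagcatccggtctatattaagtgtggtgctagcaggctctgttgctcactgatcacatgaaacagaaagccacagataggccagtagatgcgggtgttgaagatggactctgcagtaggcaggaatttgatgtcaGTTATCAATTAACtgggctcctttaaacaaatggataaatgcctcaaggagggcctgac
Slc7a9 (chr7:35148262-35148461, + strand): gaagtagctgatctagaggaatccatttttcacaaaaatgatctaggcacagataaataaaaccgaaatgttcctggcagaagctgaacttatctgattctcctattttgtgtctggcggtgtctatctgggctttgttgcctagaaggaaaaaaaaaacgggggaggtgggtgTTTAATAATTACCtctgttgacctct
Cltrn (chrX:162872983-162873182, + strand): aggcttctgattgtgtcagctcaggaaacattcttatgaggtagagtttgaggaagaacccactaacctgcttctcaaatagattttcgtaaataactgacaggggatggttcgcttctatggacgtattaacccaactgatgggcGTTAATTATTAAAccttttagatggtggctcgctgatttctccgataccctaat
Slc3a1 (chr17:85335604-85335803, + strand): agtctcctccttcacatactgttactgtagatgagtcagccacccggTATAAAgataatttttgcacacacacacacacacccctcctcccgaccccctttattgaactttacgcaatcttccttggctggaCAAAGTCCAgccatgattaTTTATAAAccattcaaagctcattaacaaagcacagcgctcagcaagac
Slc1a1 (chr19:28812274-28812473, + strand): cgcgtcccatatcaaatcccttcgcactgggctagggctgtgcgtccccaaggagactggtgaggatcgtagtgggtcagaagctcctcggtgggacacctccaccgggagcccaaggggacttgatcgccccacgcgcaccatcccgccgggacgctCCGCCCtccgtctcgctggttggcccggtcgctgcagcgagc

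An HNF1 match lay in the promoter window, from 250 bases before to 50 after the canonical start, of 3 of 10 members, against 1.26% of all protein-coding promoters. The match spanned bases -59 to -47 in Slc6a18, -54 to -42 in Cltrn and -26 to -14 in Slc7a9. Cltrn had 1 mismatch, and the other 2 promoters had 2. Among 10 proximal tubule marker genes, 1 promoter held a match (Hnf4a). An exact HNF4 word was found in Slc3a1 only, at -68 to -60, against 0.451% of all promoters. With 1 mismatch in the HNF4 word, 3 member promoters matched, against 8.40% of all. A TATAAA word was in the window of 1 member, Slc3a1, against 13.2% of promoters, and CCAAT was in that of Slc36a2 alone, against 39.9%. GGGCGG occurred in Slc7a8, Slc3a2 and Slc1a1, against 42.5%. The words TGATGNAA and TGACNNNGC were in 0 of 10 member windows, against 3.85% and 12.5%. All motifs were searched on both strands, and a match is a run of letters, not a bound site.

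All 10 members had at least 1 interval in their region, against a background of 83.2% of protein-coding genes. The canonical start itself lay inside an interval in 10 of 10 members, against 71.2%. A summit of at least 5-fold lay within 1 kb of the start in 9 of 10, against 64.3%, and the exception was Slc36a2. The number of intervals per gene had a median of 8 in the members and 4 over all protein-coding genes, and per 10 kb the medians were 3.22 and 1.85. Intervals covered a median of 59.3% of a member's region, against 16.7% over all genes.

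In strength the members lay near the medians of all genes, which include genes without any summit. They lay under the medians of genes with an interval. Their strongest summits had a median fold enrichment of 23.0, against 24.3 over all protein-coding genes and 30.8 over those with an interval. The highest summit within 1 kb of the start had a median of 16.0, against 17.0 over all genes. Intervals within 1 kb of the start also gave 16.0 in the members, against 30.1 over coding genes with such an interval. Of the 128 intervals, 31 (24.2%) reached 5-fold, against 24.5% of all intervals, and the median fold was 2.95, against 2.55. The summit that stood highest in its interval lay in an intron in 92 cases, 71.3% of 129 pairs of a gene and an interval, against 68.1% over all protein-coding genes. Among the 128 distinct intervals, the interval shared by Slc6a19 and Slc6a18 was counted once, as intronic in Slc6a19. The other summits lay in exons (13), upstream of the gene (11), between gene start and canonical start (10) and after the gene end (2). At 10-fold or more, 8 of 21 pairs of a gene and an interval were intronic (38.1%, against 39.4%).

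**Figure D1:**
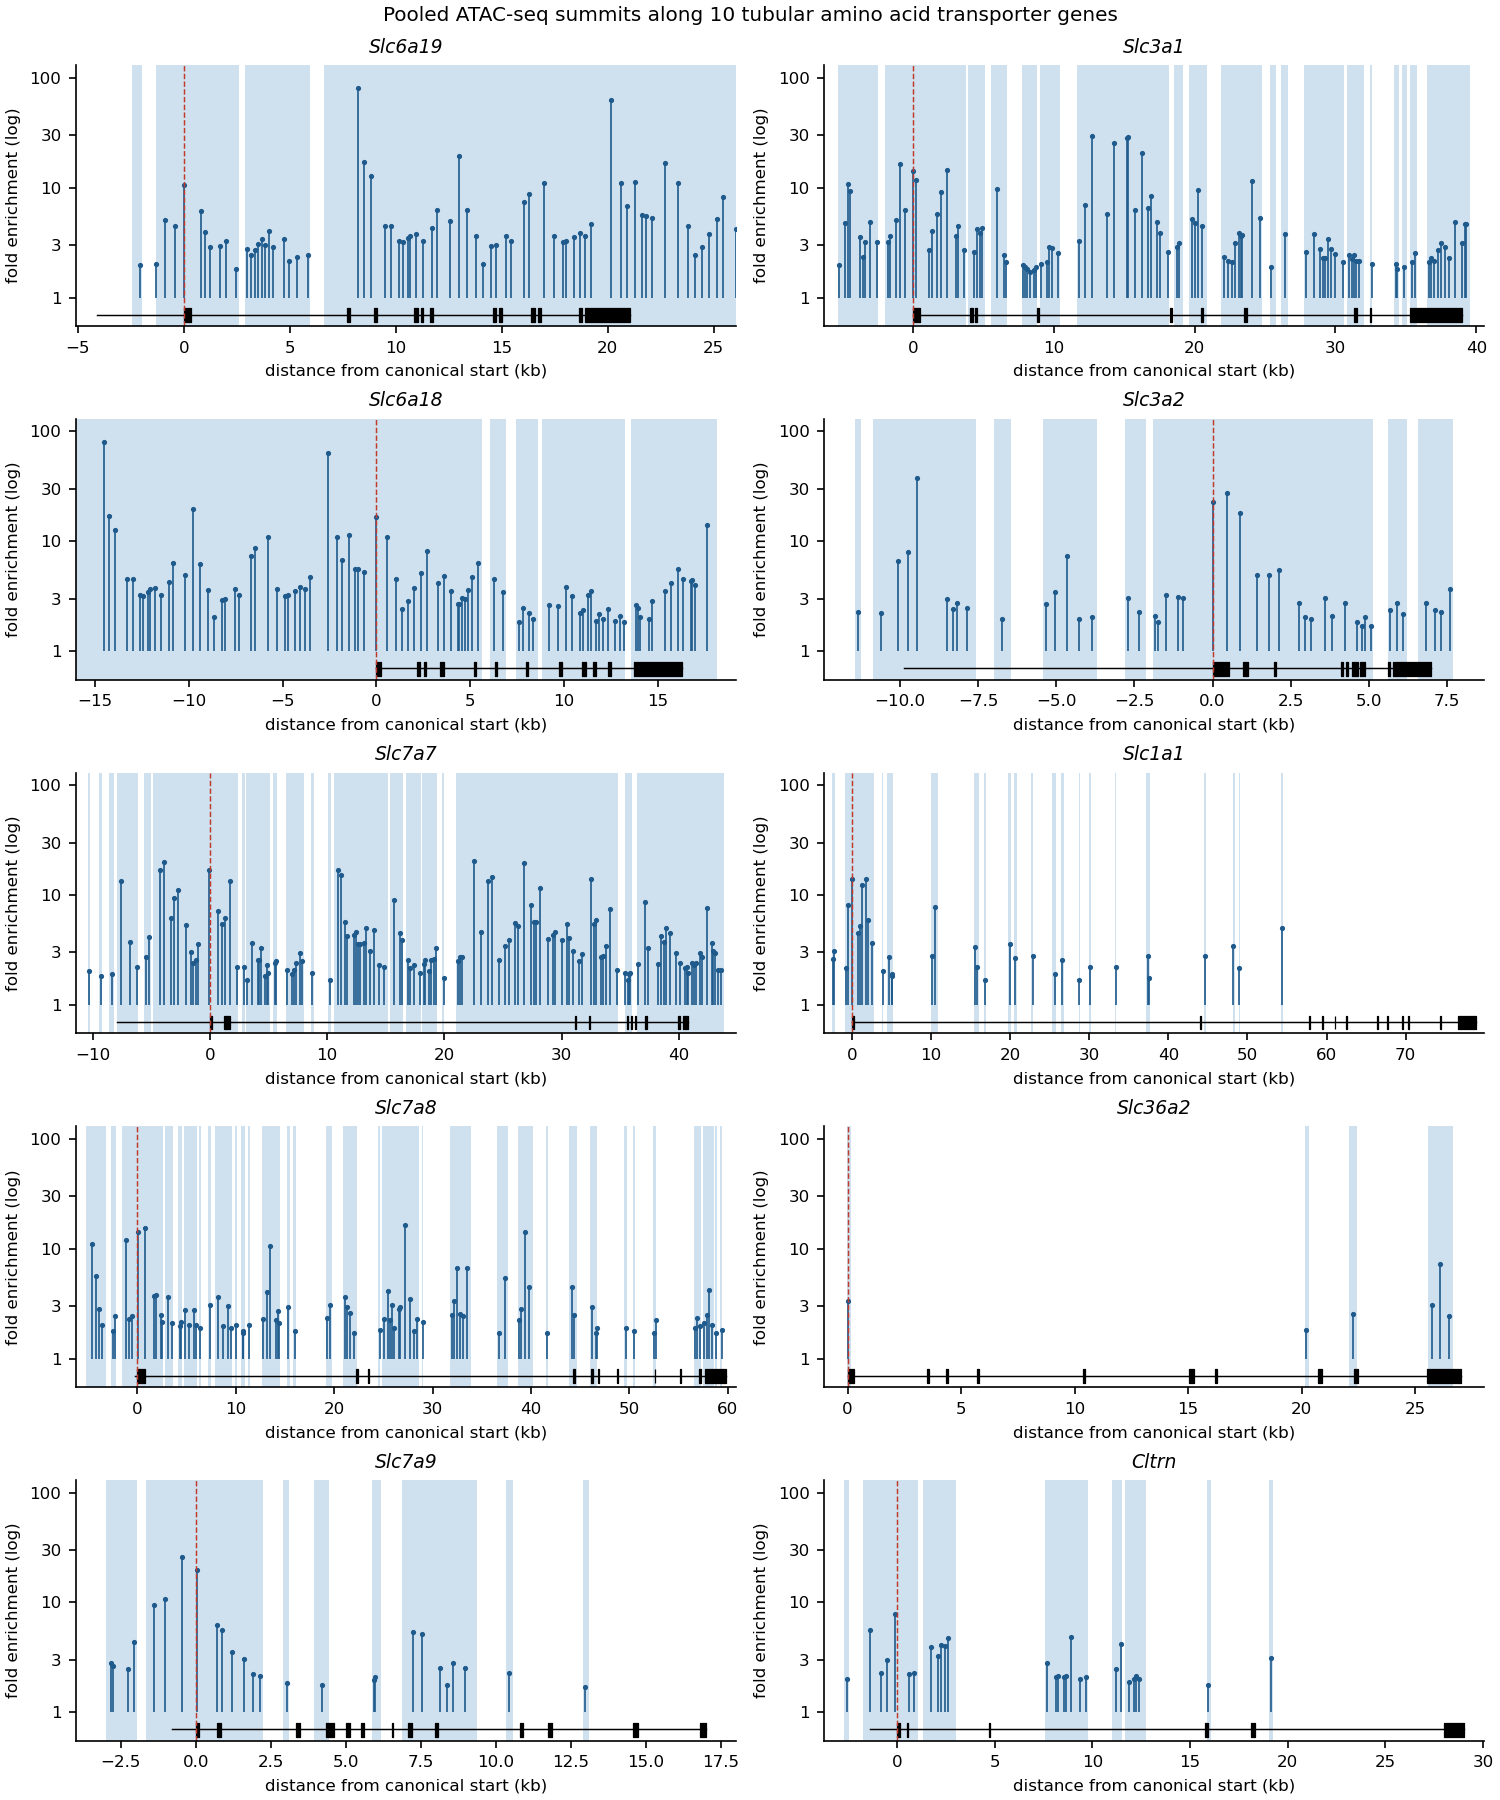
Fold enrichment of each summit (points on stems, log axis) against distance from the canonical start in kb, in the direction of transcription, for the 10 members. Shading marks intervals, black boxes the exons of the canonical transcript and the dashed line its start. Slc6a19, Slc6a18, Slc7a7, Slc3a1 and Slc3a2 are covered over most of their length. Slc36a2 has 4 short stretches, and Slc1a1 has its summits of at least 10-fold near the start.

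Slc6a19 encodes B0AT1, the main sodium-coupled carrier of neutral amino acids in the brush border, mutated in Hartnup disorder. The gene lies at chr13:73827860-73852984 on the minus strand, and its strongest summit was the highest of all members, 80.3-fold [75.9 to 85.0]. This summit was not at the canonical start but 8239 bases downstream, in intron 2, and exceeded the strongest summit of 96.8% of protein-coding genes. At the canonical start the summit was 10.5-fold [8.92 to 12.2], so the intronic summit was 7.67 times as high. The 121 bases around the intronic summit, which carried the strongest signal, are given on the strand of the gene and held no HNF1 match.
Slc6a19 summit (chr13:73840600-73840720, - strand): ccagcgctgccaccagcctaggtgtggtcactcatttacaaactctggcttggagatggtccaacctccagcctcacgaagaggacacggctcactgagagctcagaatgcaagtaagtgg

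That summit belonged to an interval that ran across both Slc6a19 and its neighbour Slc6a18, chr13:73820528-73842277. It was 21750 bases wide, and 77 intervals of the list, itself among them, were at least as wide. It held 57 summits, of which 35 lay in Slc6a19, 5 between the genes and 17 in Slc6a18. Only 10 of these summits reached 10-fold, and 7 of the 10 lay in Slc6a19. The second highest was 63.1-fold, in exon 12 of Slc6a19 at position 20177 from its start and -2577 from the start of Slc6a18. The next was 19.5-fold, so the domain had 2 sharp maxima in a stretch whose median summit was 4.26-fold.

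Slc6a18 encodes B0AT3, a relative that carries glycine and alanine in the brush border. It lies at chr13:73809871-73826145, 1714 bases from Slc6a19 and on the same strand. Intervals covered 92.2% of its region, the largest share among the 10 members. Its start lay inside the shared interval, with a summit of 16.6-fold [14.7 to 18.8] at position -48, inside the HNF1 match printed above. The promoter was poor in CpG, with an observed over expected ratio of 0.119. Promoters with a ratio from 0.1 to 0.2 had an upper quartile of 4.12-fold. After the gene end a further summit of 14.1-fold [12.3 to 16.2] was called.

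**Figure D2:**
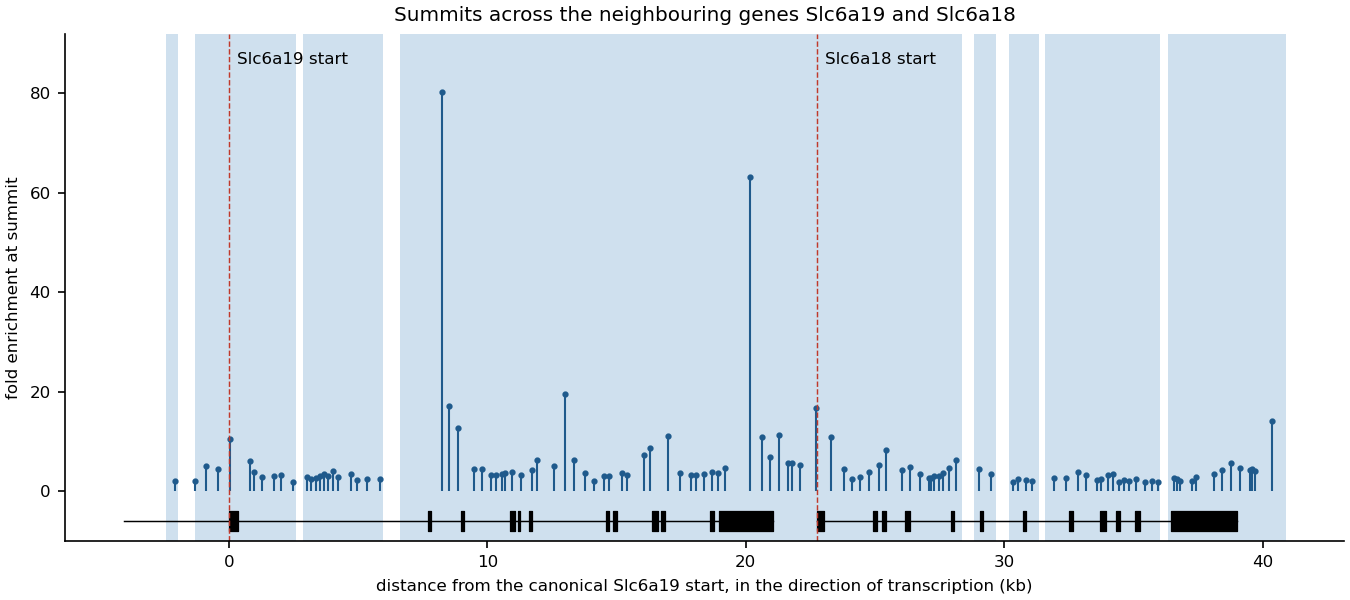
Fold enrichment of summits (points on stems, linear axis) across Slc6a19 and Slc6a18, against distance in kb from the canonical Slc6a19 start in the direction of transcription. Shading marks intervals, black boxes exons and dashed lines both starts. The summits of 80.3-fold and 63.1-fold rise from the interval that spans both genes, and both are higher than the summits at the 2 starts.

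Cltrn encodes collectrin, the partner that B0AT1 and B0AT3 need in the kidney. It lies at chrX:162871826-162902219 on the plus strand and had 8 intervals. Its strongest summit, 7.92-fold [6.58 to 9.46], lay at position -88 from the canonical start, and the HNF1 match was centred 40 bases from it. A lower summit of 5.63-fold lay at the upstream start of the gene, at position -1356. Among the other intervals the highest summits, 4.84-fold and 4.78-fold, were in introns 3 and 2. The level needs to be read against its chromosome: the strongest summits of 980 X-linked protein-coding genes had a median of 5.20-fold, against 25.4-fold on autosomes.

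Slc3a1 and Slc7a9 encode rBAT and b0,+AT, the heavy and light chains of the brush border carrier of cystine and dibasic amino acids, whose loss causes cystinuria. The summits of the pair were placed differently. Slc3a1 (chr17:85335804-85374794, plus strand) had its strongest summit, 29.7-fold [27.0 to 32.5], in intron 4, 12721 bases from the start. The same interval, 6554 bases wide, held 4 further summits of at least 20-fold, with folds of 25.3, 28.5, 28.9 and 20.7. Near the start the highest summit was 16.4-fold [14.5 to 18.6] at position -915, and a summit of 14.1-fold lay at position -5. The intronic maximum carried an HNF1 match with 2 mismatches, shown here in capitals, centred 19 bases from the summit.
Slc3a1 summit (chr17:85348465-85348585, + strand): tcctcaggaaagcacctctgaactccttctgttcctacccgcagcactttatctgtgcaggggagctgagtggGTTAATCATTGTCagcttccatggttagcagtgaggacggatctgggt

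Slc7a9 (chr7:35147668-35165461, plus strand) instead had its strongest summit, 25.7-fold [23.3 to 28.4], at position -445 from the canonical start. A second summit of 19.9-fold lay 30 bases after the start. Its other 7 intervals had highest summits between 1.70-fold and 5.37-fold. The counting intervals of the strongest Slc3a1 and Slc7a9 summits overlapped.

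Slc7a7 encodes y+LAT1, the basolateral exchanger of dibasic amino acids, mutated in lysinuric protein intolerance. The gene (chr14:54606895-54655603, minus strand) had 20 intervals that covered 82.2% of its region. It had 14 summits of at least 10-fold, from 11.0-fold to 20.3-fold. The strongest, 20.3-fold [18.1 to 22.7], lay in intron 2 at 22507 bases, in an interval of 13807 bases, and 19.4-fold was called further along the same intron. At the canonical start the summit was 16.8-fold [14.8 to 19.0], and before it, where other transcripts start, summits of 19.9-fold and 13.5-fold lay at positions -3927 and -7585.

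Slc7a8 encodes LAT2, the basolateral exchanger of neutral amino acids, and lies 304 kb from Slc7a7 on the same strand, at chr14:54959630-55019649. It had 33 intervals, more than any other member, and 5 of them reached 10-fold. Its strongest summit, 16.3-fold [14.3 to 18.5] in intron 3, differed little from that near the start, 15.6-fold [13.7 to 17.7] at 778 bases downstream. Another summit in intron 3 reached 14.3-fold.

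Slc3a2 encodes 4F2hc, the heavy chain shared by both basolateral exchangers and present in most cell types. In this gene (chr19:8684245-8701108, minus strand) the strongest summit, 37.5-fold [34.5 to 40.7], lay at position -9471 from the canonical start, among other annotated Slc3a2 starts. The same interval covers a start of Snhg1, a non-coding host of small nucleolar RNAs, so the signal cannot be assigned to one of the genes. At the canonical start 3 summits of 22.8, 27.7 and 18.1-fold followed each other within 875 bases, and 27.7-fold [25.1 to 30.5] was the highest start value of the 10 members.

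Slc1a1 encodes EAAC1, the brush border carrier of glutamate and aspartate. Its region (gene at chr19:28812449-28891360, plus strand) had 20 intervals but only 12.5% of it was covered, since the intervals in the gene body were short. The highest value, 13.9-fold [12.1 to 15.9], was shared by 2 summits, on the canonical start and 1730 bases after it in intron 1. A summit of 12.2-fold lay between them. Its promoter was the richest in CpG of the 10, with a ratio of 0.824, and promoters with a ratio from 0.8 to 0.9 had a lower quartile of 25.0-fold. An HNF1 match with 2 mismatches lay at a summit of 3.08-fold upstream of the gene.

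Slc36a2 encodes PAT2, a proton-coupled carrier of proline and glycine. It had the least accessible region of the 10 (gene at chr11:55048922-55075939, minus strand), with 4 intervals over 6.02% of it. At the start the summit was 3.34-fold [2.50 to 4.38]. The strongest, 7.33-fold [6.04 to 8.82], lay in exon 10, the last exon, 26103 bases from the start.

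Ordered by the strongest summit, the members ran from Slc6a19 and Slc6a18, which share theirs, through Slc3a2, Slc3a1, Slc7a9, Slc7a7, Slc7a8 and Slc1a1 to Cltrn and Slc36a2. Counting intervals overlapped between the neighbours Slc3a1 and Slc7a9, Slc7a7 and Slc7a8, Slc7a8 and Slc1a1, and Cltrn and Slc36a2. The other neighbours did not overlap, within counting error only. The strongest summit lay over 1 kb from every annotated start of the gene in 5 of 10 members (Slc6a18, Slc7a7, Slc7a8, Slc3a1 and Slc36a2), against 30.0% of protein-coding genes with an interval. For Slc6a18 that summit lies within Slc6a19, and the intronic Slc6a19 summit was not counted, since a further transcript of that gene starts nearby.

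**Figure D3:**
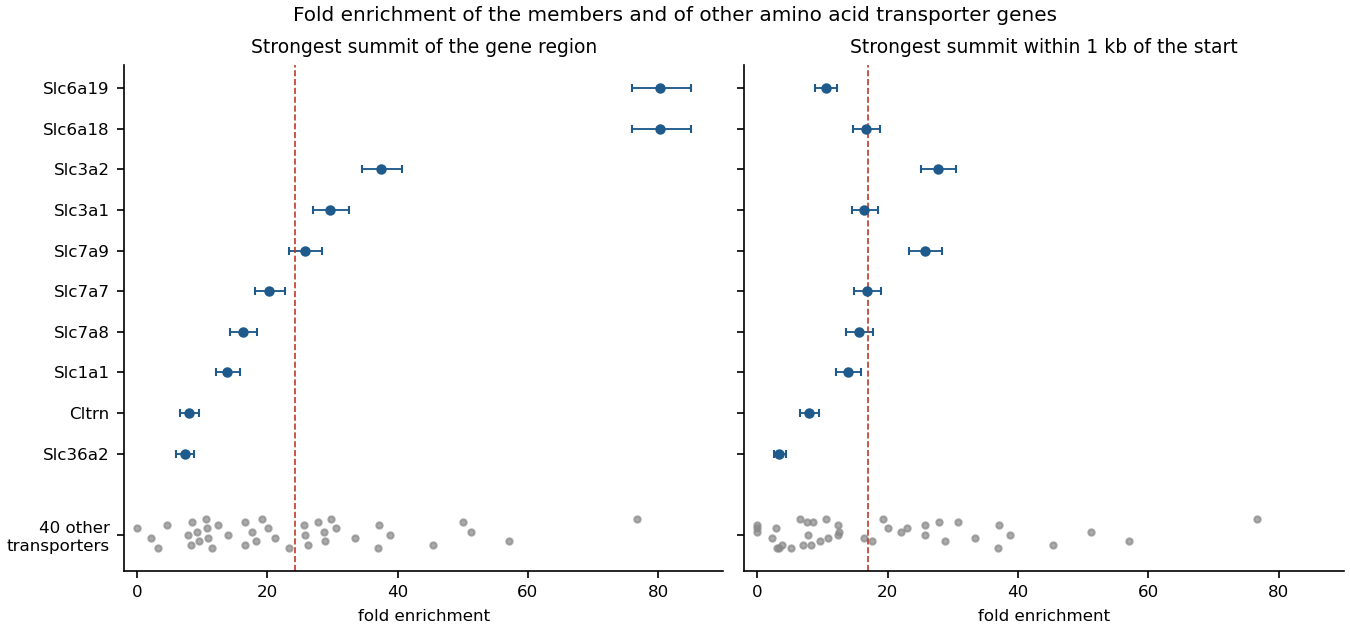
Fold enrichment of the strongest summit in the gene region (left) and of the highest within 1 kb of the start (right), with 95% counting intervals, for the 10 members. Grey points are 40 other amino acid transporter genes and dashed lines the protein-coding medians of 24.3 and 17.0, which include genes without a summit. The members spread from 7.33 to 80.3 on the left, and from 3.34 to 27.7 on the right.

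At the start sites the members differed in CpG content, which goes with accessibility over the genome. Of the 10 promoters, 6 had a CpG ratio under 0.5, against 48.6% of all protein-coding promoters. Among all promoters under this limit the highest summit within 1 kb of the start had a median of 1.96-fold and an upper quartile of 10.5-fold, and at or above it the median was 35.9-fold. These values include promoters without a summit. The 6 CpG-poor members had a median of 16.5-fold. CpG-poor promoters among the 40 other amino acid transporter genes ranged from no summit to 28.8-fold, so high values there were not particular to the members. Slc6a18, Slc6a19, Slc7a7 and Slc7a9 lay above the upper quartile of promoters of like CpG ratio, in steps of 0.1, while Cltrn and Slc1a1 lay under the lower quartile. The counting interval of Slc6a19 reached below that upper quartile. Promoters of like ratio were taken over all chromosomes, and X-linked Cltrn was not compared with X-linked promoters alone. Slc3a1 and Slc36a2 lay between the median and the upper quartile. Slc7a8 and Slc3a2, at ratios of 0.580 and 0.720, lay between the lower quartile and the median.

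**Figure D4:**
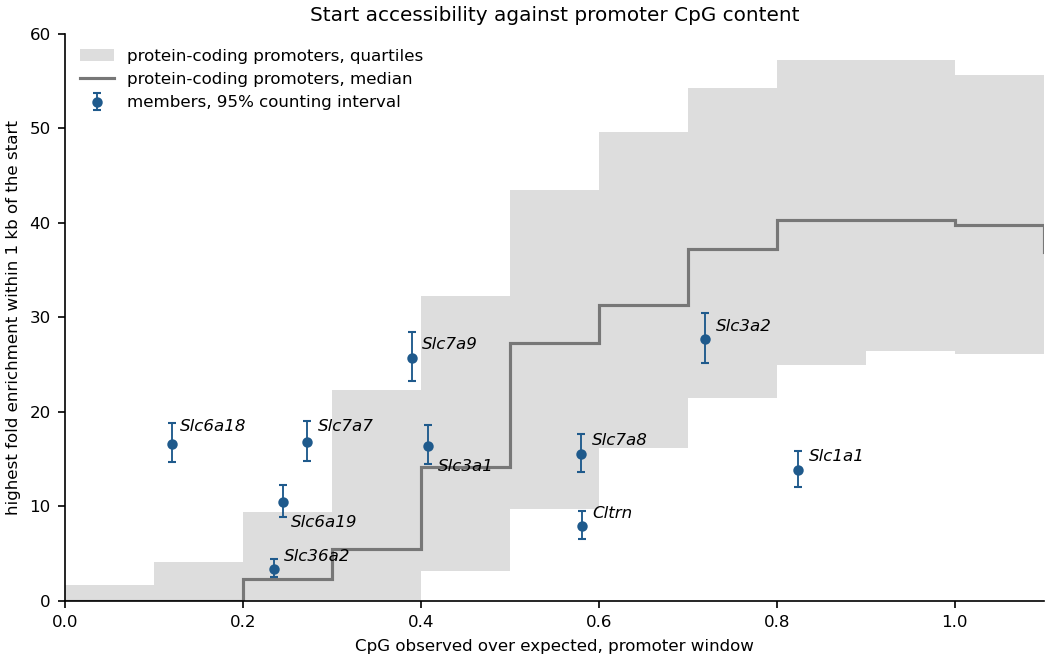
Highest fold enrichment within 1 kb of the start against the CpG observed over expected ratio of the promoter window, with 95% counting intervals for the members. The grey band spans the quartiles and the grey line the median of all protein-coding promoters in steps of 0.1. Slc6a18 stands at 16.6-fold with a ratio of 0.119, and Slc1a1 at 13.9-fold with a ratio of 0.824.

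Around the highest summits, 4 of 128 member intervals held an HNF1 match in the 200-bp window, against 2.70% of all intervals. These were 2 intervals of Slc3a1 and 1 each of Cltrn and Slc1a1. An exact HNF4 word was in 0 of 128, against 0.884%. Over whole intervals, which were wider at the members (median 588 bases, against 434), HNF1 matched in 14 (10.9%) and HNF4 in 5 (3.91%). The shares of all intervals were 5.35% and 2.02%. Among whole intervals of at least 10-fold, HNF1 matched in 7 of 20, against 17.1%, and HNF4 in 3 of 20, against 6.36%. In the 200-bp windows of these, HNF1 matched in 2 of 20, against 6.30%, and HNF4 in 0 of 20, against 1.48%.

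The other amino acid transporter genes showed a similar range. Of 40, 39 had an interval, 34 had a covered start and 32 had a summit of at least 5-fold within 1 kb of it, and the median strongest summit was 19.6-fold. The highest were Slc1a4 (76.7-fold), Slc16a10 (57.1-fold), Slc38a9 (51.3-fold), Slc6a15 (50.1-fold) and Slc38a7 (45.4-fold). Slc1a4 carries alanine, serine and cysteine, and Slc16a10 carries aromatic amino acids. No interval was called at Slc38a5, and the next lowest were Slc7a3 (2.23-fold), Slc6a14 (3.27-fold) and Slc36a3 (4.65-fold). Slc38a5, Slc7a3 and Slc6a14 are X-linked. Slc7a13, a further partner of rBAT, reached 23.4-fold away from its start and 3.08-fold at the start.

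The tissue was checked against marker genes. Starts were covered in 9 of 10 proximal tubule genes and in 1 of 5 genes of other organs (Neurod1, 2.49-fold), against 71.2% of all protein-coding genes. The proximal tubule exception was Slc22a8. That list had a median of 13.9-fold within 1 kb of the start, against 17.0-fold over all protein-coding genes. In both the thick limb and distal tubule list and the collecting duct list 4 of 5 starts were covered. Glomerular, vascular, immune and stromal markers had covered starts in 5 of 5, 4 of 5, 3 of 5 and 4 of 5 genes. Their strength ran from Ptprc at 1.90-fold to Synpo at 29.5-fold. These shares lie near the background, and the part of other cell types in the values of the members was not tested. The median strongest summit was 23.0-fold in the proximal tubule list and 27.6-fold in the immune list. However, that summit lay over 1 kb from every annotated start of the gene in 5 of 5 immune genes, against 4 of 10 proximal tubule genes. Within 1 kb of the start the immune genes reached at most 11.2-fold, against 35.1-fold in the proximal tubule list. The median strongest summit was 9.76-fold, 8.64-fold and 8.05-fold in the glomerular, vascular and stromal lists. It was 15.6-fold in the thick limb and distal tubule list, 14.0-fold in the collecting duct list and 6.68-fold in genes of other organs. Other genes started inside member intervals: Slc6a19os, Oxa1l, Snhg1, Gm62887, Gm42378, Gm59284, Gm24452, Gm25855 and Gm25894.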

How the data were processed

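ATAC-seq was done by the authors on about 50000 nuclei per kidney sample. As their methods and processing notes state, reads were aligned to mm39 (GRCm39) with Bowtie2 2.3.4.3, peaks were called with MACS3 3.0.0 (no model, extension 200, shift 100 as printed, q 0.05, summits called) and blacklisted regions were removed with bedtools 2.29.1. The deposited list gives the fold enrichment of each summit, a linear ratio made by the authors' caller, and its -log10 q as deposited. It also gives a score, which was not used here, and the offset of the summit. The deposited summits list was not used here. No column belongs to a single library, and the number of per-sample columns not used is 0.

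Rows were grouped into distinct intervals by position, taking for each the summit with the highest -log10 q, and placed on GENCODE M39. The members and lists were chosen with earlier results of these data known. Named are all 10 members, other genes that start in their intervals, and of 40 other transporters the 5 highest, the 5 lowest and those without an interval, of which 1 gene is not reported here; Slc7a13 and the marker genes were named after their values were seen. The CpG ratio was taken over the promoter window. The scripts were tested on simulated data. Sequence was read with samtools 1.23.1 and pysam 0.24.0, tables were handled in Python 3.11.15 with pandas 2.3.3 and numpy 2.4.6, Poisson intervals came from scipy 1.17.1 and plots from matplotlib 3.10.9.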

Additional observations from a re-analysis of the deposited data

How the results depend on the processing

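No paired analysis was possible because all libraries share 1 pooled value per summit, and no library could be left out. The count of 128 member intervals fell to 81 at a q under 1e-05 and to 31 at a fold of at least 5, while the other limits on q and region left it between 111 and 177. The 10 covered starts stayed 9 or 10 in every alternative run. The median strongest fold of 23.0 was 26.5 with 10 kb on either side, 18.3 without intervals over another coding start, and 16.0 near the canonical start, whether intervals or single summits within 1 kb were taken. Of the members, 3 (Slc6a19 and Slc6a18, which share 1 summit, and Slc3a2) exceeded the median of coding genes with an interval. This became 1 with intervals near the start, 5 against the median of all coding genes, and, for start values, 2 against all coding promoters and 10 against those with a CpG ratio under 0.5, although 4 of the 10 members are above that ratio. The comparisons with all coding genes, those of start values and the single summits near the start were chosen after seeing the data. Motif counts moved too: HNF1 from 4 to 1 with 1 fewer mismatch and 14 over whole intervals, HNF4 from 0 to 7 with 1 mismatch and 5 over whole intervals. Depth limits the weak intervals, whose counting intervals are wide, and a stretch without an interval says only that no peak was called.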
